A study of Mus musculus with 14 samples.

Results

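The 32 genes described here are interferon-stimulated genes, a set fixed by name that spans antiviral effectors, sensors of viral nucleic acid, interferon-inducible GTPases and the transcription factors Irf1 and Irf7. Each gene was read from its brightest single-gene probe set on the array, judged by the mean over 14 arrays. Of the 32 genes 30 had such a probe set, among 18193 genes in all. Isg15, the ubiquitin-like modifier, lay only on a probe set that names several genes, and Ifi44 had none, so neither has a value. Of the 30, 25 passed the filter on dim genes and were tested, among 10225 genes in all. The filter kept genes with a mean over all arrays above 6.43 on the log2 scale, which is the midpoint of the ranked means of all probe sets other than controls. Ifit1, Oasl2, Mx2, Iigp1 and Lgals3bp lay below it. Ifih1, at 6.57, was just inside and Oasl2, at 6.42, just outside.

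Interferon-stimulated genes are switched on when a cell receives interferon. Type I interferons bind a receptor of Ifnar1 and Ifnar2, whose kinases Jak1 and Tyk2 activate transcription factors, Stat2 and Irf9 among them, that act at interferon-stimulated response elements in promoters. Interferon gamma signals through Ifngr1 and Ifngr2 to gamma-activated sites, and the guanylate-binding and immunity-related GTPases are its well-known targets. Crebbp, the gene deleted in this study, encodes a histone acetyltransferase that serves as a coactivator for many transcription factors.

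The cells were B220+CD95+PNA+ germinal centre B cells, sorted from the spleens of individual C57BL/6x129Sv mice aged 8 to 12 weeks. All mice, controls included, carried the Cg1-Cre allele, whose recombinase comes from the immunoglobulin gamma 1 locus and acts in B cells after activation. The 4 wild-type (WT) mice were Crebbp+/+ Cg1-Cre, the 5 heterozygotes (HET) Crebbpfl/+ Cg1-Cre and the 5 knockouts (KO) Crebbpfl/fl Cg1-Cre. Every mouse received sheep red blood cells on day 0 and on day 5 and was killed on day 12. The labels name no interferon or viral treatment. The WT group had 1 male (WT 4), the HET group 2 (HET 1 and HET 4) and the KO group 3 (KO 1, KO 2 and KO 5), which left 8 females and 6 males, so sex was held as a term in each fit. Values are log2 intensities from Affymetrix Mouse Genome 430 2.0 arrays, 1 array per mouse, where 1 unit is a doubling. The level of one probe set cannot be compared with that of another.

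Crebbp itself changed by -0.41 in KO against WT on its brightest probe set (SE 0.09, limma adjusted p = 0.0372), and the KO minus WT means of its 4 probe sets lay between -0.27 and -0.87. Whether these probes lie inside the deleted part is not known here. Markers of germinal centre B cells (8 of 10 with a probe set, all 8 above the threshold, among them Bcl6, Fas and S1pr2) had mean levels of 11.8 to 12.2 per array, and 7 of 8 general B cell markers reached 12.1 to 12.3. Of markers of other cells, 2 of 8 T cell genes (Cd3e, Cd8a), 3 of 10 macrophage genes (Lyz2, Cd68, C1qb), 2 of 5 dendritic cell genes, 4 of 5 plasmacytoid dendritic cell genes, 2 of 5 neutrophil genes, 1 of 3 erythroid genes and 0 of 4 NK cell genes with a probe set passed the threshold. Of 7 plasma cell genes with a probe set, 6 passed it (Sdc1, Prdm1, Jchain, Irf4, Xbp1 and Slamf7). In KO against WT, 1 of these 6 was called higher and 1 of the 8 germinal centre markers lower. Of all tested genes 2.44% were called. Each array was correlated with all others, and the median of these values was 0.979 for KO 3 and between 0.984 and 0.990 for the remaining arrays.

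Many promoters of these genes hold letters of the kind that interferon signalling acts on, and 5 are shown. Oas1a and Ifit1 differed most between mice, Ifih1 and Gbp7 came nearest to a genotype difference, and Irf1, the steadiest between mice, stands beside them. Each window runs from 250 bases before to 50 after the start of the gene, 5′ to 3′ in the direction of the gene, from RefSeq for GRCm38.p6. Capitals mark matches, on either strand, to GAAANNGAAA, the core of the interferon-stimulated response element (ISRE), or TTCNNNGAA, the core of the gamma-activated site (GAS). Overlapping matches run together. Oas1a lies at chr5:120907476-120907775 (minus strand), with 2 overlapping ISRE matches and 1 GAS match. Ifit1 lies at chr19:34640639-34640938 (plus strand), with 2 ISRE matches on the reverse strand. Gbp7 lies at chr3:142530086-142530385 (plus strand), with 2 GAS matches followed by 1 ISRE match. Ifih1 lies at chr2:62646206-62646505 (minus strand), with 1 ISRE match that begins 32 bases after the start. Irf1 lies at chr11:53769764-53770063 (plus strand), with 1 GAS match.
Oas1a: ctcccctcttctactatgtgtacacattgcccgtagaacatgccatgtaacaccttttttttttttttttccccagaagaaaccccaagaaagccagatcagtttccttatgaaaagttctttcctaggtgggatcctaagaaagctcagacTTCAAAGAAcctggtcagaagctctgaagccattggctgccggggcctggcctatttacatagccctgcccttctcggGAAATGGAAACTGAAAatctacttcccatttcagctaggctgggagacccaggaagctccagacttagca
Ifit1: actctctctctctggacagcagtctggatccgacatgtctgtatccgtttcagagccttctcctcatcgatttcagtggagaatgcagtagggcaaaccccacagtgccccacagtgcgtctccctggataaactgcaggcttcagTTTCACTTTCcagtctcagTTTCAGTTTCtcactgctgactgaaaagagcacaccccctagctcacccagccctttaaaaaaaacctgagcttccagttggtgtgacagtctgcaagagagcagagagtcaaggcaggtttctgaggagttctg
Gbp7: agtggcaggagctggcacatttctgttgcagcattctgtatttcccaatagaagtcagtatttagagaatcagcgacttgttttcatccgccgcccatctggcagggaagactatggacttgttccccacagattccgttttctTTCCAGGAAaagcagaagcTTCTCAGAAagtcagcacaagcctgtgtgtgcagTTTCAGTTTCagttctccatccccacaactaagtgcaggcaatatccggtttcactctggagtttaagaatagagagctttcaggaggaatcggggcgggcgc
Ifih1: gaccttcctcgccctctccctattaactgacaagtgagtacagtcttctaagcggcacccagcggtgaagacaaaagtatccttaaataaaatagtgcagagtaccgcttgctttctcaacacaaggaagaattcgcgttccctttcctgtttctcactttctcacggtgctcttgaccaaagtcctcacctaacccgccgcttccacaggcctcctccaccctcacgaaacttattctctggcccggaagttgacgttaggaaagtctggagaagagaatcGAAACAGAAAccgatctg
Irf1: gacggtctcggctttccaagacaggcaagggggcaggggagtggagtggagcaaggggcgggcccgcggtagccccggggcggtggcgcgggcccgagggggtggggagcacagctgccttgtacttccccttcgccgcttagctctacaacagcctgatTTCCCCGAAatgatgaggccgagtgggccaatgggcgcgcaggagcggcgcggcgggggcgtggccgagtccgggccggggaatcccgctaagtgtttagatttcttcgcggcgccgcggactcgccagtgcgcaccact

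Of the 32 genes, 23 matched a promoter window by symbol. An ISRE match was present for 14 of these 23, 60.9%, against 3.99% of 27025 genes with a window. A GAS match was present for 7 of 23, 30.4%, against 9.55%. These are descriptions of letters in the window and not of binding. Igtp and Bst2 joined Oas1a and Gbp7 in having both motifs, Isg15 had 3 overlapping ISRE matches, and Irf1, Ifit2 and Ifi35 had a GAS match alone.

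The first question the groups address is whether loss of Crebbp moved these genes. In KO against WT, 0 of the 25 tested genes passed an adjusted p of 0.05 (limma, Benjamini-Hochberg over all genes tested), where 2.44% of all tested genes passed. At an unadjusted p under 0.05 the count was 1 of 25, Ifih1, against 13.1% of all genes. Of the 25, 14 had a higher and 11 a lower estimate, with a median of 0.02 against 0.00 over all tested genes and a range of -0.15 to 0.56. No gene separated the groups: 0 of 30 had all KO arrays on one side of all WT arrays, against 6.51% of tested genes. In sorted cell pools a smaller share of cells expressing a gene and less RNA per cell cannot be told apart, here and in every comparison that follows.

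**Figure D1:**
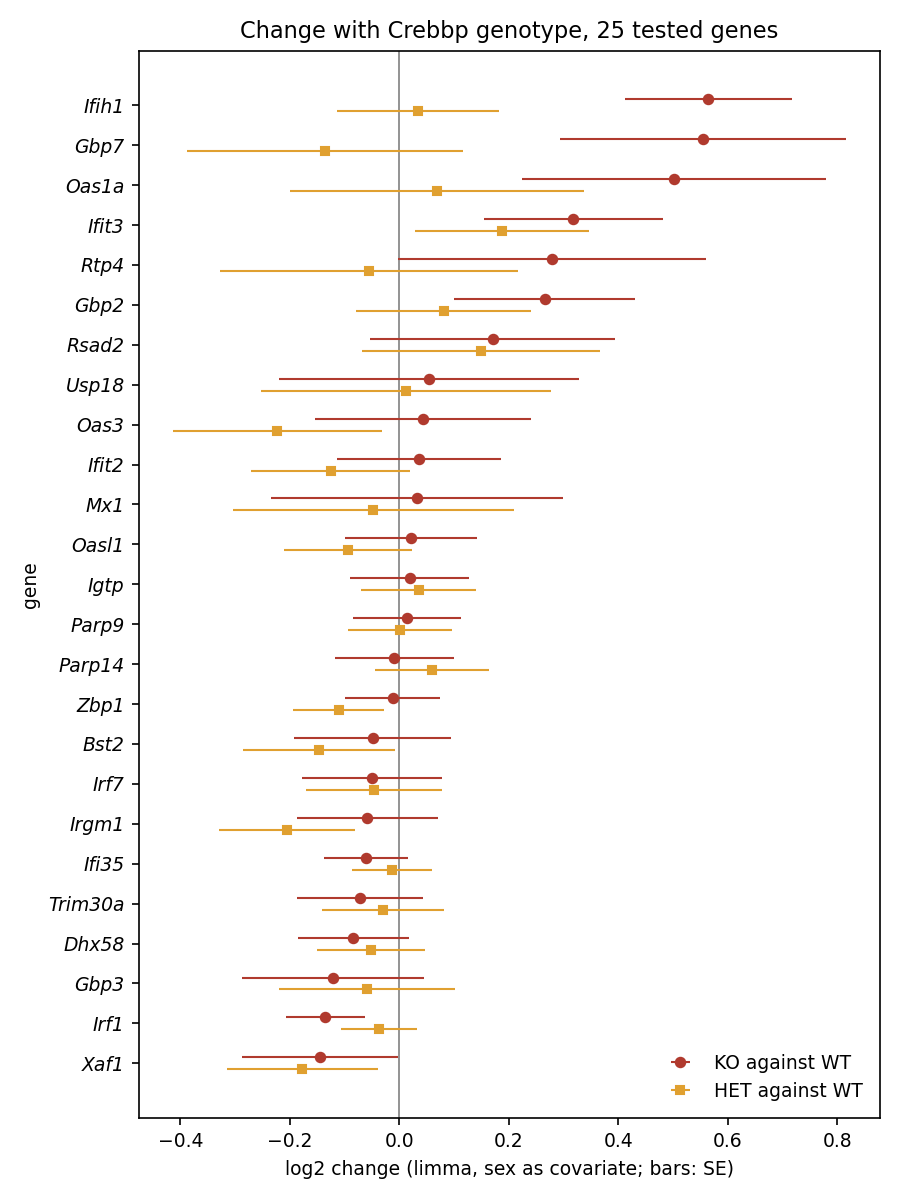
Estimated log2 change of each of the 25 tested genes in KO (red circles) and HET (orange squares) against the same 4 WT arrays, with sex held; bars are standard errors. Ifih1, Gbp7 and Oas1a lie farthest to the right in KO, at 0.56, 0.55 and 0.50, and the estimates for HET stay between -0.22 and 0.19.

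Ifih1 came nearest to a call. It encodes the MDA5 helicase, which senses long double-stranded RNA in the cytoplasm. Its level was 6.63, 6.26, 6.42 and 6.35 in WT 1 to WT 4, then 6.48, 6.65, 6.45, 6.09 and 6.34 in HET 1 to HET 5, and 6.78, 6.40, 7.48, 6.90 and 6.81 in KO 1 to KO 5. Except for KO 2, which lay inside the WT range, every KO array was above every WT and HET array. The estimate in KO against WT was 0.56 (SE 0.15), 1.48-fold, with an adjusted p of 0.0772. Without KO 2 it was 0.64 (SE 0.14) and the adjusted p was 0.0397, so the call depends on that array. Without KO 3 it was 0.40 (SE 0.13, adjusted p = 0.145), and over all alternatives the adjusted p ran from 0.0397 to 0.191. The other sensors of the set did not follow it. Dhx58, which encodes the related helicase LGP2, had an estimate of -0.08 (SE 0.10), and Zbp1, a sensor of Z-form nucleic acid, of -0.01 (SE 0.09).

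The interferon gamma GTPases gave 3 higher and 2 lower estimates of 5. Gbp7, a guanylate-binding protein of the defence against intracellular microbes, was measured at 6.80, 6.79, 7.29 and 6.61 in WT, at 7.00, 7.12, 6.77, 6.14 and 6.53 in HET and at 7.83, 6.92, 7.91, 6.81 and 7.37 in KO. KO 1, KO 3 and KO 5 exceeded every WT and HET array, while KO 2 and KO 4 lay within the WT range. The estimate in KO against WT was 0.55 (SE 0.26, adjusted p = 0.390). Without the sex term, the KO minus WT means differed by 0.50 on this probe set and by 0.09 on the other, dimmer one. With the mean of all its probe sets the Gbp7 estimate was 0.38 (SE 0.21, limma adjusted p = 0.511). Gbp2, of the same family, had values of 7.23, 7.06, 6.74 and 7.15 in WT, 7.19, 7.16, 6.95, 7.32 and 7.01 in HET, and 7.35, 7.38, 7.78, 7.20 and 6.84 in KO. KO 1, KO 2 and KO 3 were above all WT arrays and the estimate was 0.27 (SE 0.17, adjusted p = 0.568), but 0.08 without KO 3. Gbp3 had an estimate of -0.12 (SE 0.17), and the immunity-related GTPases Igtp and Irgm1 had 0.02 (SE 0.11) and -0.06 (SE 0.13).

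Active enzymes of the OAS family make the second messenger that activates RNase L. All 3 tested members had a higher estimate in KO, but only that of Oas1a was far from 0. Oas1a was measured at 8.71, 8.42, 8.19 and 8.48 in WT, at 8.04, 8.74, 8.95, 7.21 and 9.04 in HET and at 7.70, 8.52, 9.44, 8.97 and 8.69 in KO. The WT arrays sat inside the range of both other groups, and the lowest and highest of all 14 values were HET 4 and KO 3. The estimate was 0.50 (SE 0.28, adjusted p = 0.494), against 0.04 (SE 0.20) for Oas3 and 0.02 (SE 0.12) for Oasl1. For Oas1a it was 0.88 (SE 0.27) without WT 4 and 0.21 without the sex term. Oasl2, below the threshold and taken from a fit with no filter, had an estimate of 0.46 (SE 0.17, adjusted p = 0.348).

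Among the IFIT proteins, which bind viral RNA, Ifit3 had values of 8.20, 8.05, 7.98 and 7.83 in WT, 8.25, 8.24, 8.19, 7.43 and 8.47 in HET and 7.83, 7.58, 8.68, 8.58 and 8.01 in KO. KO 3 and KO 4 were above every WT array and KO 2 below every one. Its estimate in KO against WT was 0.32 (SE 0.16, adjusted p = 0.449), or 0.13 without the sex term, and that of Ifit2 was 0.04 (SE 0.15). The transcription factors both had estimates below 0. Irf1, which drives many interferon gamma responses, read 9.76, 9.85, 9.95 and 10.03 in WT, 10.03, 9.85, 9.73, 9.83 and 9.93 in HET and 9.84, 9.71, 9.80, 9.79 and 9.80 in KO. Apart from KO 2, its KO arrays were within the WT range, and the estimate was -0.14 (SE 0.07, adjusted p = 0.465). Irf7, the factor that amplifies type I interferon production, had -0.05 (SE 0.13).

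The remaining effectors were spread on both sides of 0 in KO against WT. Rtp4 had 0.28 (SE 0.28), Rsad2, the antiviral enzyme viperin, 0.17 (SE 0.22), and Usp18, the protease that removes Isg15 and dampens receptor signalling, 0.05 (SE 0.27). Mx1, a dynamin-like GTPase that blocks influenza virus, had 0.03 (SE 0.27). Bst2, or tetherin, which holds budding virus at the cell surface, had -0.05 (SE 0.14), Ifi35 -0.06 (SE 0.08), Trim30a -0.07 (SE 0.11) and Xaf1 -0.15 (SE 0.14). The ADP-ribosyltransferase family members Parp9 and Parp14 had 0.01 (SE 0.10) and -0.01 (SE 0.11). The standard errors of these genes had a median of 0.14, against 0.10 over all tested genes, so a difference had to be larger here to be called.

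In HET against WT, which shares the WT arrays with the comparison above, 0 of 25 genes passed the adjusted threshold in limma, against 0% of all genes. At an unadjusted p under 0.05 the count was 0 of 25, against 2.74% of all genes. The estimates were higher for 9 and lower for 16, with a median of -0.05 against 0.00 over all tested genes. Irgm1, an immunity-related GTPase that guards vacuoles and autophagy, had the smallest p. Its values were 7.18, 7.10, 7.27 and 7.54 in WT, 7.09, 7.22, 7.05, 6.67 and 7.21 in HET and 7.19, 6.91, 7.27, 7.38 and 7.11 in KO, and the HET and WT ranges overlapped. The estimate was -0.20 (SE 0.12, adjusted p = 1.00). Zbp1 had -0.11 (SE 0.08) and Xaf1 -0.18 (SE 0.14), both with an adjusted p of 1.00. Single arrays carried much of these values, since Irgm1 stood at -0.03 without WT 4, and Xaf1 and Zbp1 each at -0.06 without HET 4. Mx2, which RefSeq lists as a transcribed pseudogene and which lay far below the threshold, was the 1 of 30 genes whose HET and WT arrays did not overlap, against 1.50% of tested genes. Its WT arrays read 4.41, 4.36, 4.39 and 4.22 and its HET arrays 3.93, 3.99, 4.00, 4.11 and 4.14, with an adjusted p of 1.00 in the fit with no filter.

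In KO against HET, 0 of 25 genes passed the adjusted threshold, against 0.264% of all genes. Ifih1 and Gbp7 passed an unadjusted p under 0.05, 8% of the 25 against 6.39% of all. Ifih1 had an estimate of 0.53 (SE 0.14, limma adjusted p = 0.224), Gbp7 of 0.69 (SE 0.24, adjusted p = 0.474) and Oas1a of 0.43 (SE 0.25, adjusted p = 0.993). Without HET 4 and KO 3 these were 0.30, 0.31 and 0.03, and without HET 4 alone Oas1a was at 0.19. With the mean of all its probe sets Gbp7 was at 0.40. The estimates were higher for 17 and lower for 8, with a median of 0.08 against -0.01 over all tested genes. The HET mean lay between the WT and KO means for 12 of the 25 genes, 48%, against 56.4% of all tested genes.

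Averaged over the 30 genes, the level per array was 8.01 ± 0.07 (SD, n = 4) in WT, 7.93 ± 0.25 (SD, n = 5) in HET and 7.98 ± 0.22 (SD, n = 5) in KO. The WT arrays stood at 8.10, 8.03, 7.93 and 8.00, the HET arrays at 7.90, 8.04, 8.04, 7.53 and 8.16, and the KO arrays at 7.83, 7.74, 8.27, 8.16 and 7.91. The means differed by -0.03 (KO minus WT), -0.08 (HET minus WT) and 0.05 (KO minus HET), less than the SD within HET or KO. HET 4 was the lowest of all arrays and KO 3 the highest, and the WT range lay inside the other two. Among females alone KO stood at 8.21, from 2 mice, and WT at 8.02, from 3, a difference of 0.20 in place of -0.03.

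**Figure D2:**
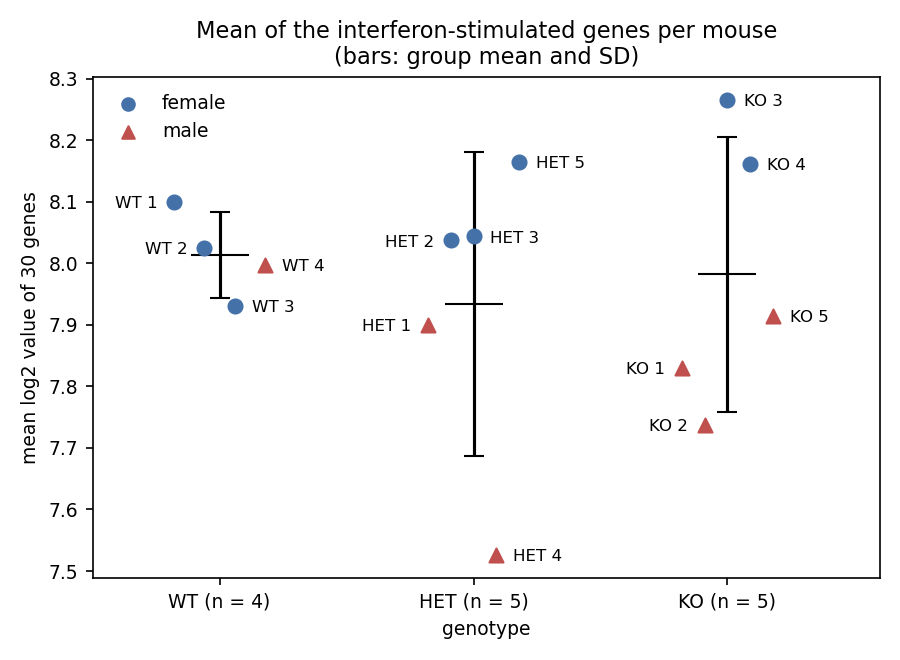
Mean log2 value of the 30 genes in each mouse, by genotype, with females as blue circles and males as red triangles; the bars give the mean and SD of each group. WT mice lie between 7.93 and 8.10, whereas HET mice run from 7.53 to 8.16 and KO mice from 7.74 to 8.27.

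Mice of one genotype differed more in these genes than in most others. Pooled over the 3 groups, the within-group SD of the 25 tested genes had a median of 0.25 log2 units, against 0.15 over all tested genes, and 22 of 25 exceeded that all-gene median. Of the 25, 9 were above the 90th percentile of all tested genes, 0.28. Dim probe sets vary more, but within 3 ranges of mean level the count above the median of genes in the same range was 10 of 10 (6.43 to 7.5), 6 of 6 (7.5 to 9) and 8 of 9 (9 to 15). Within groups the median SD was 0.14 in WT, 0.25 in HET and 0.33 in KO, against 0.12, 0.12 and 0.16 over all genes. Without HET 4 the HET value was 0.13, against 0.11 over all genes, and without KO 3 the KO value was 0.25, against 0.12. The groups WT, HET and KO held 1, 2 and 3 males. With sex also removed, the pooled median SD was 0.22, against 0.15 over all tested genes. Whether the spread differs between genotypes was not tested.

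**Figure D3:**
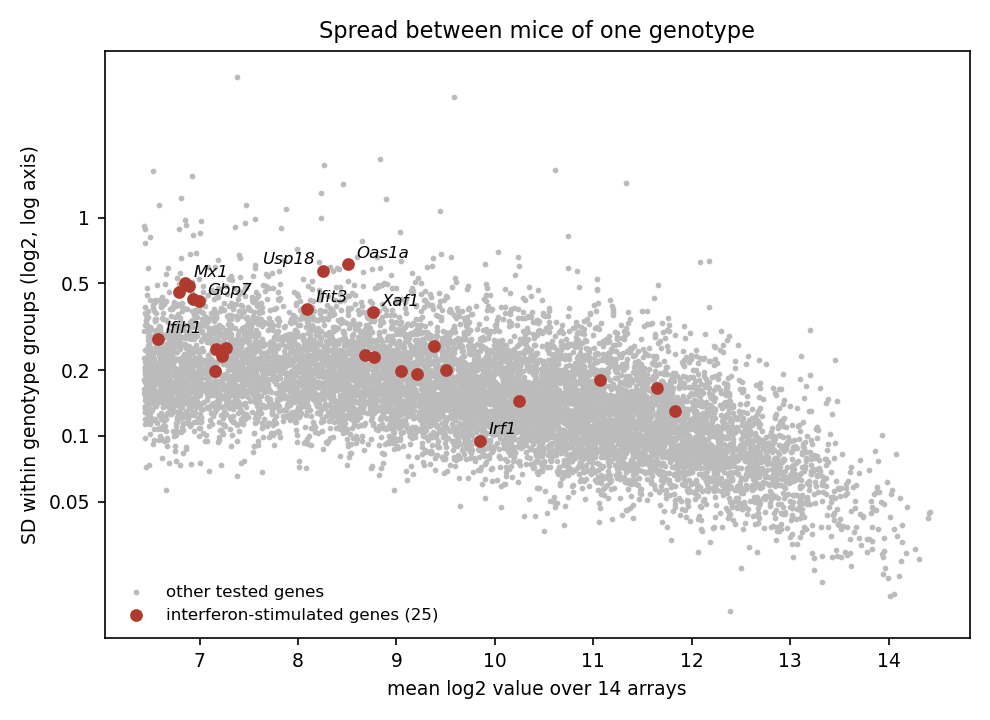
Within-genotype SD (log axis) against mean log2 level for the 10225 tested genes, with the 25 interferon-stimulated genes in red. Oas1a at 0.61 and Usp18 at 0.57 lie near the upper edge of the cloud for their level, whereas Irf1 at 0.095 lies in its lower part.

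Oas1a, Ifit1, Usp18, Mx1 and Rtp4 had the largest SDs, at 0.61, 0.60, 0.57, 0.50 and 0.49. For Oas1a this SD is a factor of 1.53 between mice of one genotype, and the lowest and highest of the 14 arrays lay 4.69-fold apart. Usp18 read 8.62, 8.38, 8.26 and 8.18 in WT, 8.04, 8.30, 8.40, 7.36 and 9.21 in HET, and 7.27, 7.70, 8.42, 8.86 and 8.55 in KO. HET 4 and KO 1 were lowest and HET 5 highest, outside the WT range on both sides. Mx1 read 7.09, 6.94, 6.93 and 6.86 in WT, 7.20, 6.98, 6.64, 6.06 and 7.25 in HET, and 6.48, 6.07, 7.85, 6.97 and 6.64 in KO. Here HET 4 and KO 2 were lowest and KO 3 highest. Ifit1, too dim to be tested, read 5.80, 6.03, 5.63 and 5.57 in WT, 5.65, 5.51, 6.22, 5.19 and 6.83 in HET, and 5.20, 5.09, 5.73, 6.86 and 6.25 in KO. Its highest arrays were KO 4 and HET 5. Rtp4, a chaperone for cell-surface receptors, read 6.86, 6.87, 6.44 and 7.37 in WT, 6.58, 6.81, 6.85, 5.99 and 7.62 in HET, and 6.78, 6.41, 7.26, 7.58 and 7.07 in KO, again with HET 4 lowest and HET 5 and KO 4 highest. For all 5 of these genes the 3 groups overlapped.

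At the other end, Irf1 had the smallest SD of the tested set, 0.095, and 17.6% of all tested genes had a smaller one. Next came Ifi35 (0.13), Parp9 (0.14), Trim30a (0.17) and Parp14 (0.18), which lie among brighter genes, where the median over all genes was 0.13. The 13 genes with an ISRE match and a probe set had a median SD of 0.28, the 8 without a match 0.24 and the 9 for which no window was found 0.20. These medians are descriptive, and the classes overlapped, with 0.17 to 0.61 for genes with a match and 0.095 to 0.37 for those without.

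The genes moved together from mouse to mouse. After subtraction of each group's mean, the median Pearson correlation over the 300 pairs of tested genes was 0.51 across the 14 arrays, and 84.3% of pairs were positive, against a median of 0.034 and 53.0% for pairs of all tested genes. With the mean difference between sexes also removed, the median was 0.37. With that difference left in, the median was 0.35 without HET 4, 0.50 without KO 3 and 0.26 without both, with 71.3% of pairs positive. All pairs share the same arrays.

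**Figure D4:**
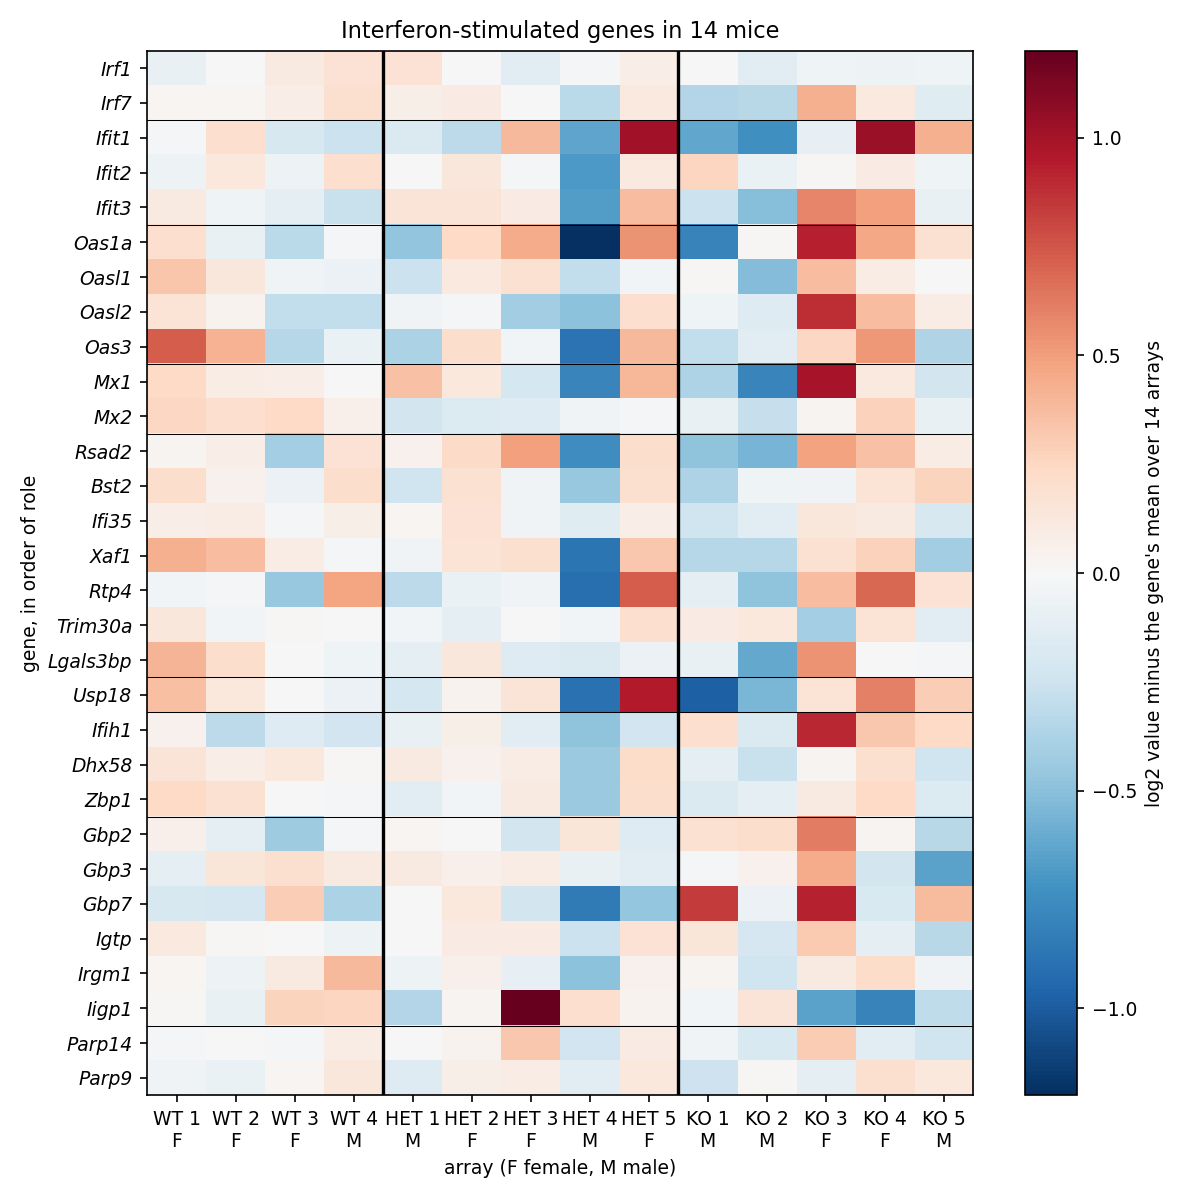
Log2 value of each of the 30 genes (rows, by role) in each mouse (columns, by genotype, with sex below), as the difference from the gene's mean over 14 arrays on a scale of -1.2 to 1.2 (blue lower, red higher). The HET 4 column is blue in most rows, KO 3 and KO 4 are red in most rows, and the WT columns are pale.

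HET 4 was below the HET mean for 28 of 30 genes, with a median deviation of -0.36, against 52.8% of all tested genes and a median of -0.01. It was the lowest HET array for 23 of 30 genes, against 29.0% of all genes, and the lowest of all 14 arrays for 15. KO 3 was above the KO mean for 24 of 30 genes, with a median deviation of 0.28, against 59.6% of all genes and 0.06. It was the highest KO array for 15 of 30 genes, against 39.8% of all tested genes. It was the highest of all 14 arrays for 12 genes, among them Mx1, Oas1a, Oasl2, Ifih1 and Irf7. For the lowest and highest of all 14 arrays no share over all tested genes is given. Those 2 counts, 15 for HET 4 and 12 for KO 3, therefore cannot be read as particular to these genes. KO 4 was above its group mean for 24 of 30 genes, against 49.0% of all tested genes. HET 5 was above for 25, against 53.1%, and HET 2 for 24, against 61.8%. KO 2 was below for 25, against 60.5%. Iigp1, a dim GTPase of the interferon gamma group, ran apart from the rest, with its highest value in HET 3 (5.74) and its lowest in KO 4 (3.68) and KO 3 (3.84).

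Values of other kinds also differed between these arrays. Of 6 markers of follicular and marginal zone B cells, among them Fcer2a, Cr2 and Klf2, 5 were below the group mean in HET 4, with a median deviation of -0.31, and 6 were above it in KO 3, with a median deviation of 0.31. The mean level of these markers ranged over 8.90 to 9.08 in WT, 8.61 to 9.32 in HET and 8.55 to 9.46 in KO. In KO 4, another array high in interferon-stimulated genes, their median deviation was -0.51, and in HET 5 it was -0.17. Other markers also deviated in HET 4, counting all with a probe set: 4 of 4 NK cell genes were below the group mean (median -0.53), 6 of 8 T cell genes (-0.24), 4 of 5 neutrophil genes (-0.34) and 4 of 5 dendritic cell genes (-0.17), whereas 2 of 10 macrophage genes were (0.35). In KO 3 these lists had medians of -0.10 to 0.11. HET 5, high in interferon-stimulated genes, was as low as HET 4 in NK cell (-0.57), T cell (-0.30) and neutrophil genes (-0.32). Its dendritic cell and macrophage medians were -0.00 and 0.16. In KO 4 the NK cell, T cell, neutrophil, dendritic cell and macrophage medians were -0.42, -0.32, 0.07, -0.10 and -0.34. Markers of plasmacytoid dendritic cells, the classical source of type I interferon, deviated by 0.01 in HET 4, 0.14 in KO 3, -0.18 in HET 5 and -0.10 in KO 4. The difference between 3′ and 5′ probe sets of the beta-actin control, a sign of RNA length, was 0.82 in HET 3, HET 4 and KO 3 and at most 0.75 on the other arrays. For the Gapdh control it was highest in KO 3, at 0.74, while HET 4, at 0.66, lay below WT 3 (0.72), WT 4 (0.71) and KO 1 (0.70). The part of cell mixture and RNA quality in the pattern was not tested.

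The genotype groups differed in their number of males, so the sex term of the fit is given for these genes too. With genotype held, 23 of the 25 tested genes had a lower estimate in males, against 48.9% of all tested genes, with a median of -0.25 against 0.00. None passed the adjusted threshold (0 of 25, against 0.0293% of all genes). At an unadjusted p under 0.05, 14 of 25 were lower in males and 0 higher, 56%. Of all tested genes 6.38% passed that p, and 3.73% passed it and were lower in males. The lower estimates ran through most roles. All 3 OAS genes had one, with a median of -0.64, as did both IFIT genes (-0.33), all 3 sensors (-0.29) and all 5 interferon gamma GTPases (-0.12), while Irf1 (0.07) and Trim30a (0.03) had estimates above 0.

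Xaf1, an interferon-induced gene with a role in cell death, had the smallest p. Its values were 9.19, 9.14, 8.86 and 8.74 in WT 1 to WT 4, 8.73, 8.93, 8.96, 7.89 and 9.09 in HET 1 to HET 5, and 8.43, 8.43, 8.94, 9.04 and 8.35 in KO 1 to KO 5. In each of the 3 groups every male was below every female. Of all tested genes 23.2% had this order in WT, with its 1 male, 9.21% in HET and 8.93% in KO. Xaf1 and Zbp1 were named for their p in this comparison, so such an order in them is not separate support. The Xaf1 estimate for males against females was -0.56 (SE 0.12, limma unadjusted p = 0.000279, adjusted p = 0.407). Zbp1 read 9.75, 9.69, 9.50 and 9.49 in WT, 9.37, 9.47, 9.62, 9.06 and 9.71 in HET, and 9.33, 9.39, 9.62, 9.74 and 9.34 in KO, and its males were again below the females in each group. Its estimate was -0.31 (SE 0.07, adjusted p = 0.452), or -0.22 with the mean of its probe sets. For Ifit3 it was -0.55 (SE 0.13, adjusted p = 0.493), with males below females in WT and KO, whereas HET 1, a male, lay among the HET females. Larger estimates came with larger errors, at -0.82 (SE 0.22) for Oas1a, -0.72 (SE 0.22) for Usp18 and -0.64 (SE 0.16) for Oas3.

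Group by group, the 30-gene mean in males minus females was -0.02 in WT, where only WT 4 is male, -0.37 in HET and -0.39 in KO. The 3 KO males lay at 7.74 to 7.91 and the 2 KO females at 8.16 and 8.27, so the sexes did not overlap within KO. Within WT 16 of 30 genes were lower in the male, against 35.9% of all tested genes, and within both HET and KO 27 of 30 were, against 54.0% and 58.5%. Whether the sex difference depends on genotype was not tested.

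**Figure D5:**
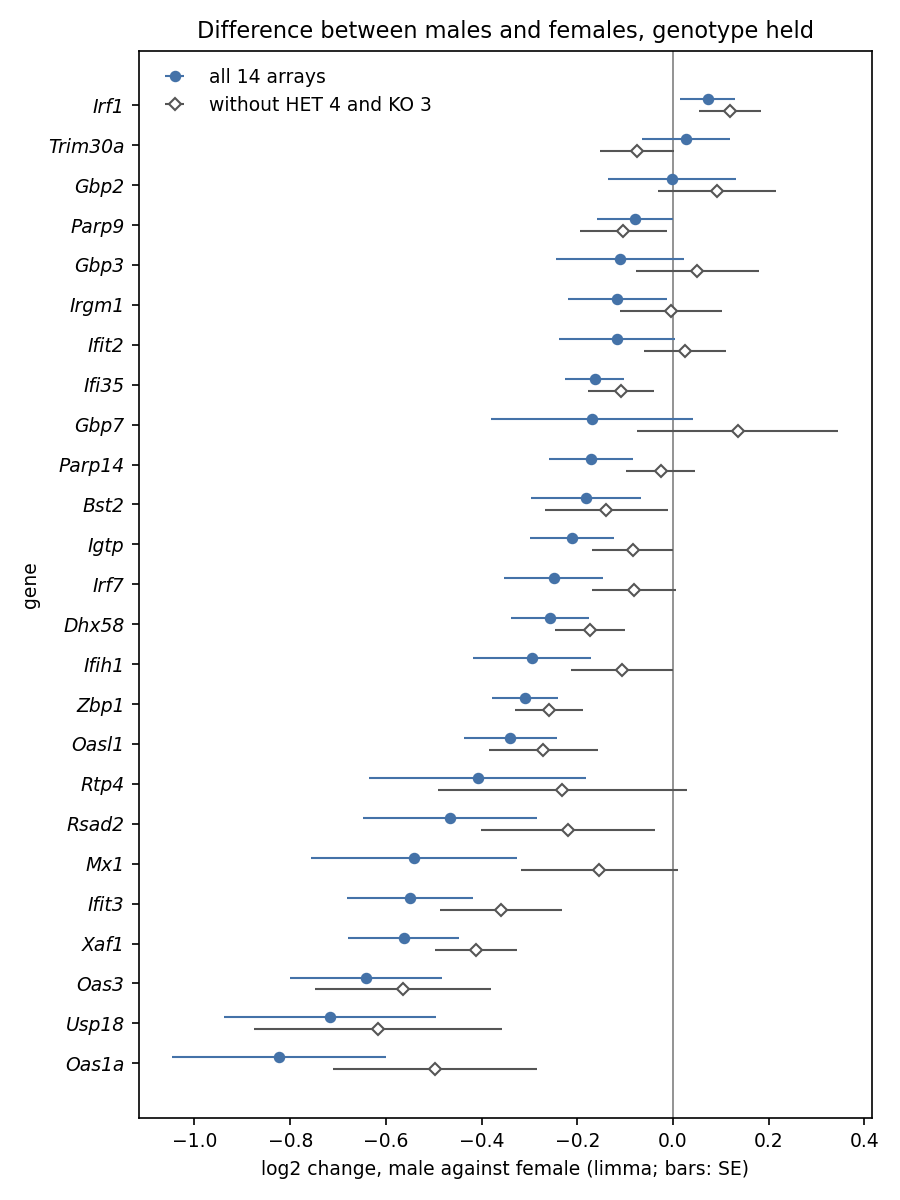
Estimated log2 difference of males against females for the 25 tested genes, with genotype held, from all 14 arrays (filled blue circles) and without HET 4 and KO 3 (open diamonds); bars are standard errors. With all arrays 23 of 25 estimates lie below 0 and without those 2 arrays 20 do, and Oas1a moves from -0.82 to -0.50.

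The sex difference rested in part on 2 arrays. Without HET 4, a male, the median was -0.17 and 8 genes passed an unadjusted p under 0.05, against 5.66% of all tested genes. Without KO 3, a female, the median was -0.18 with 8 genes, against 6.15%. Without both, the median was -0.11, with 20 of 25 estimates below 0 and 8 genes at an unadjusted p under 0.05, where 42.3% of all tested genes were below 0 and 7.11% passed that p. Xaf1 then had -0.41 (SE 0.09, adjusted p = 0.519) and Zbp1 -0.26 (SE 0.07, adjusted p = 0.573). The markers of follicular and marginal zone B cells had a median sex difference of -0.02, those of plasmacytoid dendritic cells -0.04 and the 3 macrophage markers above the threshold 0.49, with 0 called. The part of these cells in the sex difference was not tested. Males made up 3 of 5 KO mice and 1 of 4 WT mice, so the sex term enters the genotype result. Without it, the median of the 25 genes in KO against WT was -0.10, with 18 of 25 lower, in place of 0.02.

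Upstream of these genes, 1 receptor gene was called. Of 14 tested genes of interferon receptors and signalling outside the set, 0 were called higher and 1 lower in KO against WT. The share called among all tested genes was 2.44%. Of the 14 estimates 12 were below 0, against 51.0% of all tested genes, with a median of -0.10. The called gene was Ifnlr1, the specific chain of the interferon lambda receptor. It read 7.95, 7.88, 7.51 and 7.98 in WT, 7.69, 7.45, 7.20, 7.64 and 7.56 in HET and 6.85, 6.77, 6.77, 6.81 and 7.19 in KO, so that every KO array lay below every WT and HET array. The estimate was -1.02 (SE 0.11, limma adjusted p = 0.000582) in KO against WT, -0.67 (SE 0.10, adjusted p = 0.0291) in KO against HET and -0.35 (SE 0.11, adjusted p = 1.00) in HET against WT. Next by p was the kinase Jak1, at -0.24 in KO against WT (adjusted p = 0.144). Ifnar1 had -0.00 (SE 0.07) and Ifnar2 -0.23 (SE 0.18) in KO against WT. Ifngr1 had -0.48 (SE 0.18, adjusted p = 0.222) and Ifngr2 -0.30 (SE 0.14). Stat2 had -0.11 (SE 0.14) and Irf9 -0.05 (SE 0.13).

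Of interferon ligands, 1 of 8 genes with a probe set was above the threshold, Ifna1, with an estimate of -0.12 in KO against WT. Of 12 tested sensors and induction genes outside the set, 0 were called in any genotype comparison. Unc93b1, which carries Toll-like receptors to endosomes, had -0.38 in KO against WT (adjusted p = 0.0540), and Tlr3, an endosomal sensor of double-stranded RNA, had 0.43 (adjusted p = 0.377). Ddx58, which encodes RIG-I, the sister sensor of the Ifih1 product, had 0.34 (SE 0.16, adjusted p = 0.382) in KO against WT and 0.45 (SE 0.14, adjusted p = 0.407) in KO against HET. Of 54 other tested interferon-stimulated genes, 1 was called in KO against WT, against 2.44% of all tested genes. It was Slfn2, a Schlafen gene of lymphocyte quiescence, which was lower (-0.47, SE 0.11, limma adjusted p = 0.0454). Of the 54 estimates 33 were below 0, against 51.0% of all tested genes, with a median of -0.07. Phf11d followed with -0.37 (adjusted p = 0.0649). By sex, 42 of these 54 had lower estimates in males, against 48.9% of all tested genes, with a median of -0.06. At an unadjusted p under 0.05, 10 of the 54 passed, against 6.38% of all tested genes. In HET 4, 42 of the 54 were below the HET mean, against 52.8% of all tested genes, with a median deviation of -0.13. In KO 3, 40 of 54 were above the KO mean, against 59.6% of all tested genes, with a median deviation of 0.12. The median within-group SD of the 54 was 0.16, against 0.15 over all tested genes, and the median correlation between pairs of them was 0.14.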

How the data were processed

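Per the labels' protocols, 25 ng of total RNA per mouse was amplified and 3.75 ug of cDNA was labelled for the array. Each deposited value is the log2 intensity of a probe set on an array, which the authors obtained with RMA (version unknown) per the submitters' processing notes. RMA normalises by quantiles, so a shift of most genes would not be seen, and it compresses changes of dim probe sets. Of 45101 probe sets, 64 are controls, 34945 name 1 gene, 932 several and 9160 none in the platform annotation, and 34741 matched RefSeq for GRCm38.p6 by gene identifier.

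Groups and sex came from the labels. A linear model of genotype group plus sex was fitted across the 14 arrays in limma 3.58.1 (lmFit, eBayes) under R 4.3.3. Benjamini-Hochberg adjustment ran over 10225 genes, with a threshold of 0.05. Summaries used Python 3.11.15. The fit was tested on simulated data. The number of mice limits the precision. Members and lists were chosen with earlier results of these data known. Every member is named; values per array are given for any member called, the 6 members with the smallest p in KO against WT, the 3 in each other comparison and the 5 with the largest within-group SD. From each interferon list, genes with an adjusted p under 0.05 and the 2 with the smallest p are named, with receptors and Ddx58 added. Promoters shown, and Usp18 and the other genes named in the sex comparison beyond the first 3, were chosen after their values were seen. Alternatives covered the filter, probe sets, scaling, sex term, fit options, replicate block and each array left out.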

Additional observations from a re-analysis of the deposited data

Results flagged for a closer look

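In 93 sets of values (30 genes in WT, HET and KO, and their mean per array), the array at the edge was compared with its group, and 5 stood apart by a gap that chance gives in about 1 in 20 groups. A count of 5 in 93 is itself near 1 in 20. The sets share arrays and genes that moved together, so the count cannot tell whether any of the 5 goes beyond chance. HET 4 accounted for 4 of the 5, in genes that moved together, so these 4 are not separate findings. Irf7 was 8.45 in HET 4 and 8.78 to 8.88 on the other HET arrays. Ifit2 was 6.54 there, against 7.21 to 7.36. Ifit3 was 7.43, against 8.19 to 8.47. Dhx58 was 8.59, against 9.10 to 9.27. The fifth was Parp14 in WT, where WT 4, the only male of its group, was highest at 11.16, against 11.05 to 11.06.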

How the results depend on the processing

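Of the recomputed values, 637 stayed within the tolerance (for tested genes the same side of the threshold, for counts a factor of 1.5, for means and medians a move under the within-group SD of the mean per array), 3 became stronger, 4 weaker and 1 moved. Within that tolerance signs could change and untested sizes could shift. In KO against WT the count of genes called was 0, and it was 1 (Ifih1) at an adjusted p under 0.10 and 0 to 1 when each array was left out in turn. The share of all tested genes called is not given for the looser threshold or the fits without an array, so those counts have no comparison. The adjusted p of Ifih1 ranged from 0.0397 to 0.191 over the alternatives. The difference of the 30-gene mean between KO and WT was 0.20 in females alone. The count at an unadjusted p under 0.05 in males against females was 14, and 3 with the filter at the 75th percentile, which leaves 8 of the genes, 8 without HET 4 and KO 3 together (an alternative chosen after seeing the data), and 8 to 18 when each array was left out in turn. The median change in KO against WT ranged from -0.10 to 0.12 and so has no settled sign, that in HET against WT from -0.08 to 0.05, that in KO against HET from -0.04 to 0.13 and that by sex from -0.31 to -0.11. Whether the replicate numbers in the labels pair the mice was not settled. Over 13 same-numbered pairs the correlation of deviations ran from -0.17 to 0.38, with 9 over 0.1. Pairs with different numbers were not compared. With the number as a replicate block, 0 genes were called in KO against WT, the smallest adjusted p was 0.123 and the median was -0.01. Groups of 4 and 5 mice, uneven in sex, limit every comparison, and dim genes such as Ifit1, Mx2 and Iigp1 lie where RMA compresses differences.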
